A study of Tigriopus californicus with 4 samples.

Results

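Vitellogenins and apolipoproteins, the carriers that move lipid through the body fluid and into yolk, were followed contig by contig in 2 populations of the copepod *Tigriopus californicus*. A contig was included if its product name held vitellogenin, apolipoprotein, apolipophorin or lipophorin and neither the word receptor nor a bracketed species. This gave 49 of the 41209 deposited contigs, 30 of 20278 in San Diego (SD) and 19 of 20931 in Santa Cruz (SC). The study assembled more contigs than it deposited, and all contigs below means the deposited ones. No deposited contig carried an apolipophorin name, and lipophorin occurred only in receptor names. The SD contigs were 10 named vitellogenin 1, 11 named vitellogenin 2, 2 named vitellogenin-like protein, 6 named apolipoprotein d and 1 named apolipoprotein d-like. In SC the same names were on 4, 7, 2, 5 and 1 contigs. Several contigs with a shared name can be fragments of 1 transcript or near-identical copies, so they were not treated as replicates.

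The 4 messenger RNA libraries were a control and a heat stress library from each population, each made from 1 pool of 300 to 400 copepods of all life stages. SD and SC animals came from wild stocks reared in the laboratory at 20°C. The control pools stayed at 20°C, and the heat stress pools spent 1 h at 35°C and then 1 h at 20°C before RNA extraction. Both control libraries shared a sequencing lane and both heat stress libraries the adjacent one, so lane and treatment cannot be told apart. With 1 library per condition there is no replicate error, and every difference below is between 2 libraries.

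Vitellogenins are large lipid transfer proteins that mature females make, secrete and deliver to growing oocytes, where receptors take them up and they become yolk. Microsomal triglyceride transfer protein, a relative of the vitellogenins, loads lipid onto such carriers before secretion. Apolipoprotein D is unrelated to them in structure. It is a small lipocalin, a barrel-shaped protein that binds single hydrophobic molecules, and in flies and mammals it is known for a protective role under oxidative stress.

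Expression is given as deposited in RPKM, the reads on a contig divided by its length in kilobases and by the size of its library. Whole reads were recovered from these values. The control libraries came to 1947202 mapped reads (SD) and 3256758 (SC), and the heat-stressed ones to 5583127 (SD) and 4948622 (SC), so the SD control was the shallowest. Fold changes are heat stress RPKM over control RPKM and carry 95% exact intervals of the read split, which cover counting error only. A contig was called when Kal's *Z*-test on its RPKM shares passed a Bonferroni threshold of 0.10, counted over every deposited contig of the population. The test calls 2 libraries different, not 2 conditions. The words rose and fell are kept for called contigs. Over all contigs above 0 in both libraries the median log2 fold change was -0.03 in SD and 0.40 in SC, so the SC heat stress values sat above the control values for the median contig by a fold of 1.32.

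In SC all 13 vitellogenin contigs had higher RPKM after heat stress and all 6 apolipoprotein contigs had lower RPKM. Among all SC contigs, 64.4% were higher and 35.6% were lower. Calls fell on 12 of the 19 members, against 5.54% of all SC contigs. Of the vitellogenins 11 were called up-regulated and 0 down-regulated, against 3.05% and 2.49% of all SC contigs. Calls were more common at high expression, with 15.2% up-regulated and 15.4% down-regulated among SC contigs with a mean RPKM of at least 50, where 10 of 15 members were called up-regulated and 1 down-regulated. Of the apolipoproteins 1 was called down-regulated. On recovered reads the same test called 16 members, 12 up-regulated and 4 down-regulated, against 17.9% of all SC contigs, 10.9% up-regulated and 7.03% down-regulated. When RPKM was scaled so that the median contig had equal values in both libraries, the split moved from 11 up and 1 down to 7 up and 2 down, against 1.11% and 5.76% of all contigs. In a pool, more cells or animals making a transcript and more transcript per cell cannot be told apart.

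**Figure D1:**
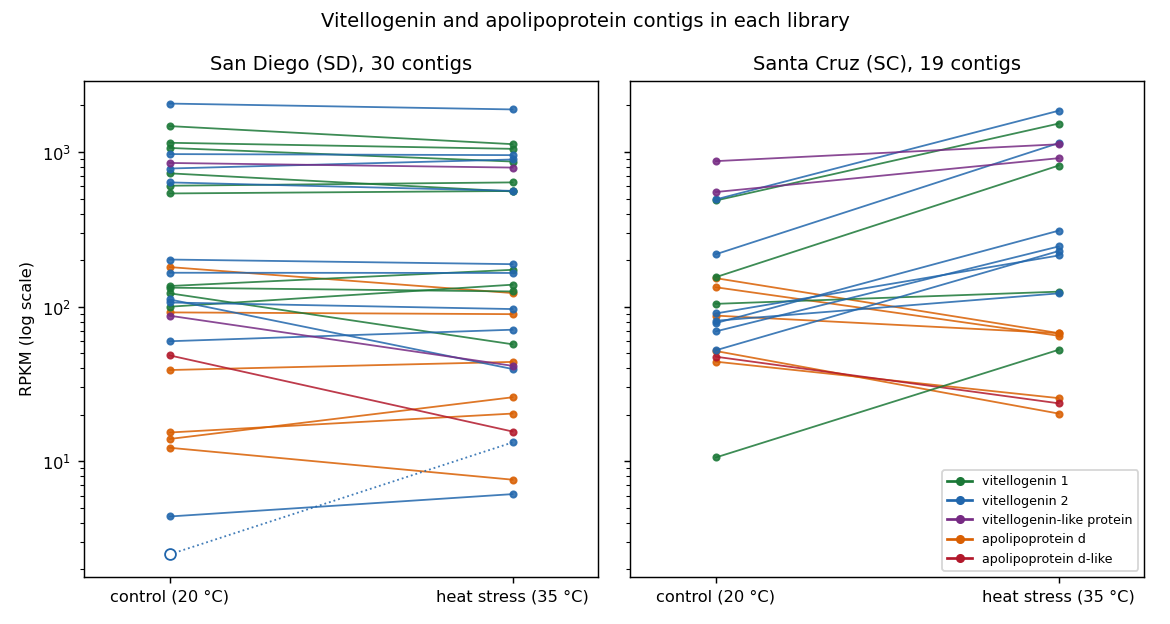
RPKM (log axis) of each member contig in the control and heat stress library of SD (left, 30 contigs) and SC (right, 19 contigs). Each line is 1 contig, colored by product name, and the open circle with a dotted line stands for the SD contig listed at 0 in the control. All 13 SC vitellogenin lines slope up and all 6 SC apolipoprotein lines slope down, while most SD lines are close to level.

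Vitellogenin 1 in SC was carried mainly by SCN_Contig46568, the longest contig of that name, with a recovered length of 4405 bp. It went from 486 RPKM in the control to 1527 RPKM after heat stress, on 6970 and 33291 reads. The fold change was 3.14 (3.06 to 3.23), and its rank among all SC contigs moved from 363 to 48. SCN_Contig62645 rose from 155 RPKM to 817 RPKM. Its fold change of 5.27 (4.87 to 5.71) was the highest of any SC member. SCN_Contig52878 was the least abundant, at 10.6 RPKM and 31 reads in the control and 52.6 RPKM after heat stress, and had a fold change of 4.97 (3.41 to 7.48). SCN_Contig63659, a contig of 215 bp, stood apart from these, at 104 and 125 RPKM. Its fold change of 1.2 (0.895 to 1.62) was not called and was below that of the median contig.

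Vitellogenin 2 in SC had a similar main contig, SCN_Contig55692, of 4081 bp. Its level was 494 RPKM in the control and 1849 RPKM after heat stress, on 6563 and 37336 reads. The fold change was 3.74 (3.65 to 3.84), and after heat stress only 25 SC contigs had a higher RPKM, so that its rank was 26, from 356 in the control. SCN_Contig55671 rose from 218 to 1142 RPKM, by a fold change of 5.23 (4.81 to 5.70). The lower 4 called contigs of this name lay between 52.2 and 90.4 RPKM in the control and between 214 and 310 RPKM after heat stress. Their fold changes were 4.38 for SCN_Contig48805, 3.96 for SCN_Contig50516, 3.54 for SCN_Contig50456 and 2.37 for SCN_Contig47093. SCN_Contig54411 was at 81.1 and 122 RPKM, and its fold change of 1.5 (1.30 to 1.74) was called on recovered reads but not on RPKM.

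The contigs named vitellogenin-like protein started highest in the SC control and were less than 2-fold higher after heat stress. SCN_Contig54343, with 5122 bp the longest of the SC members, was at 873 RPKM in the control and 1122 RPKM after heat stress. It was called up-regulated with a fold change of 1.29 (1.26 to 1.31), but relative to the median contig its fold change was 0.976, so its direction rests on the scaling. SCN_Contig20087 rose from 551 to 912 RPKM, with a fold change of 1.65 (1.48 to 1.85), or 1.26 relative to the median contig. In the control both were above every vitellogenin 1 and vitellogenin 2 contig, and after heat stress 2 contigs of vitellogenin 2 and 1 of vitellogenin 1 were above both. The order of the yolk protein transcripts in the pool thus differed between the SC libraries.

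**Figure D2:**
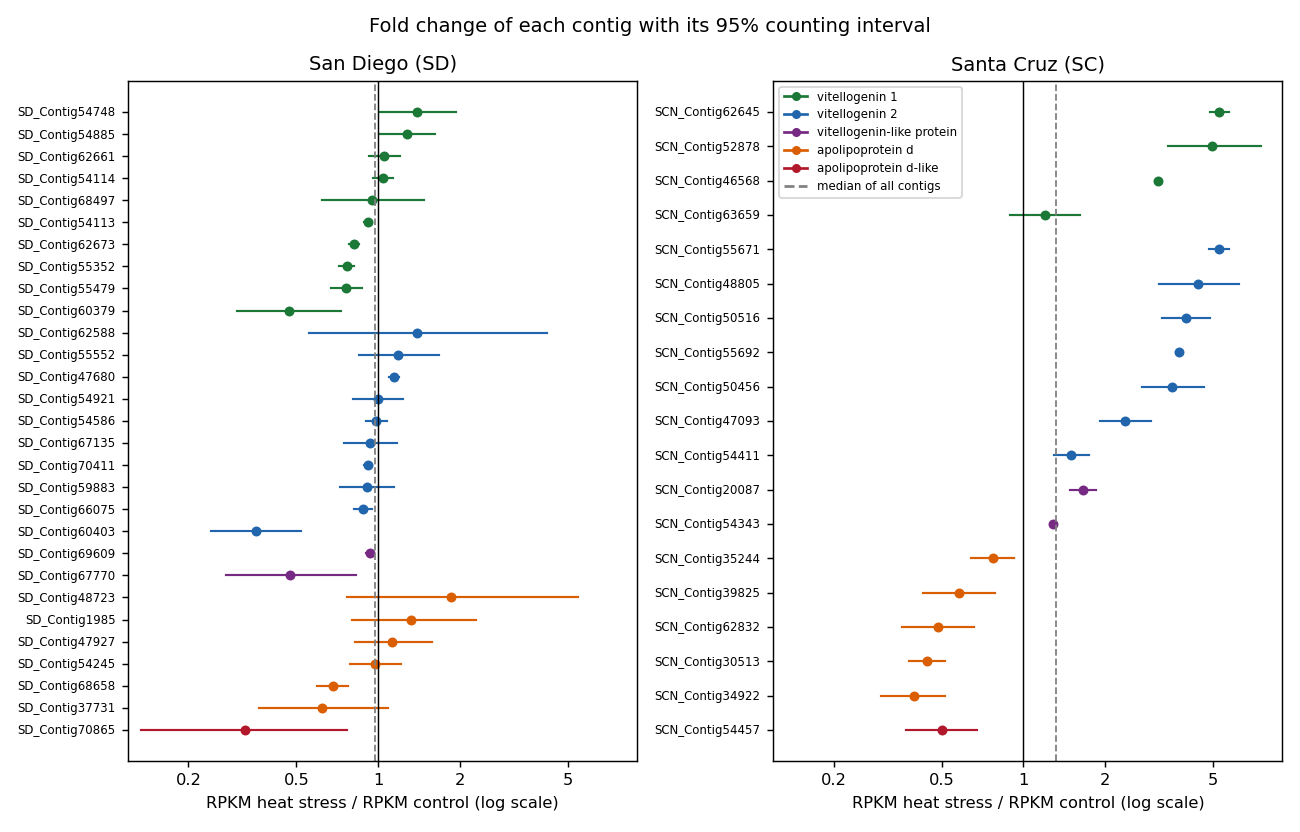
Fold change (heat stress RPKM over control RPKM, log axis) of each member contig above 0 in both libraries, with 95% exact intervals of the read split as bars, for SD (left) and SC (right). The dashed line is the median of all contigs, 0.977 in SD and 1.32 in SC, and the SC vitellogenin 1 and 2 contigs lie to the right of it except SCN_Contig63659, while the SC apolipoprotein contigs lie to the left of the solid line at 1.

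Summed over the contigs of a name, the reads of vitellogenin 1 in SC made up 0.272% of the recovered control reads and 0.906% of the heat stress reads, a fold change of 3.32 (3.24 to 3.40) per mapped read. For vitellogenin 2 the shares were 0.273% and 1.03%, a fold change of 3.77 (3.68 to 3.86). For vitellogenin-like protein they were 0.526% and 0.683%, a fold change of 1.30 (1.27 to 1.32). All 13 vitellogenin contigs together took 1.07% of the control reads (95% exact interval 1.06 to 1.08%) and 2.62% of the heat stress reads (2.60 to 2.63%). The 3 longest contigs held 92.0% of the vitellogenin reads in the control and 87.4% after heat stress. The other 10 contigs had a summed fold change of 3.82 (3.66 to 3.99). With SCN_Contig54343 counted among the others, the summed fold change of these 11 was 1.65 (1.62 to 1.68), so this value turned on that contig.

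Fold changes of this size were less common among well expressed SC contigs than among all of them. At least 2-fold higher RPKM was found for 9 of the 13 vitellogenin contigs, against 28.8% of all SC contigs and 10.1% of the 3036 contigs with a mean RPKM of at least 50, a set drawn after seeing the data. Of the 15 members in that set, 8 were at least 2-fold higher. The fold change of SCN_Contig55692 was above that of 90.4% of all SC contigs, and above 98.1% of the contigs with a mean RPKM of at least 50. For SCN_Contig46568 these shares were 86.2% and 96.7%, and for SCN_Contig54343 they were 48.6% and 75.8%.

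The apolipoprotein d contigs of SC went the other way. SCN_Contig30513 fell from 153 to 67.4 RPKM on 443 and 297 reads. Its fold change was 0.441 (0.380 to 0.512), and it was the 1 contig of the name that was called on RPKM as deposited. SCN_Contig34922 was at 51.6 RPKM in the control and 20.3 RPKM after heat stress, a fold change of 0.394 (0.299 to 0.517). SCN_Contig62832 was at 133 and 64.8 RPKM, a fold change of 0.486 (0.356 to 0.660). SCN_Contig30513, SCN_Contig34922 and SCN_Contig62832 were called down-regulated on recovered reads, against 7.03% of all SC contigs. With RPKM scaled by the median contig SCN_Contig30513 and SCN_Contig62832 were called down-regulated. SCN_Contig39825 and SCN_Contig35244 had fold changes of 0.581 (0.427 to 0.789) and 0.770 (0.640 to 0.927). The upper ends of all 5 intervals were below 1. At least 2-fold lower RPKM was found for 4 of the 6 SC apolipoprotein contigs, against 8.22% of all SC contigs. Of the 4, the apolipoprotein d-like contig described below lay at the limit with 0.4997. Among SC contigs with a mean RPKM of at least 50 the share was 14.5%, and 2 of the 15 members there were at least 2-fold lower. The whole group took 0.0390% of the control reads and 0.0204% of the heat stress reads.

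In SD most yolk protein contigs were close to level between the libraries. Of the 23 vitellogenin contigs 8 were higher and 15 lower after heat stress, against 48.2% and 51.8% of all SD contigs. The calls among the 30 members were 4, against 2.59% of all SD contigs, and all were vitellogenins. Called down-regulated were 4 and up-regulated 0, against 1.24% and 1.35% of all SD contigs and 5.77% and 5.02% of the 2650 with a mean RPKM of at least 50. Scaling by the median contig left 3 down and 0 up, against 1.19% and 1.45% of all SD contigs. On recovered reads 7 members were called, 6 down-regulated and 1 up-regulated, against 3.16% of all SD contigs, 1.77% down-regulated and 1.39% up-regulated. The median log2 fold change of the 30 SD members, with the contig at 0 in the control ranked as higher, was -0.09, and that of the 19 SC members was 0.73. The SC value mixes a median of 1.82 over the vitellogenins with one of -1.02 over the apolipoproteins.

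**Figure D3:**
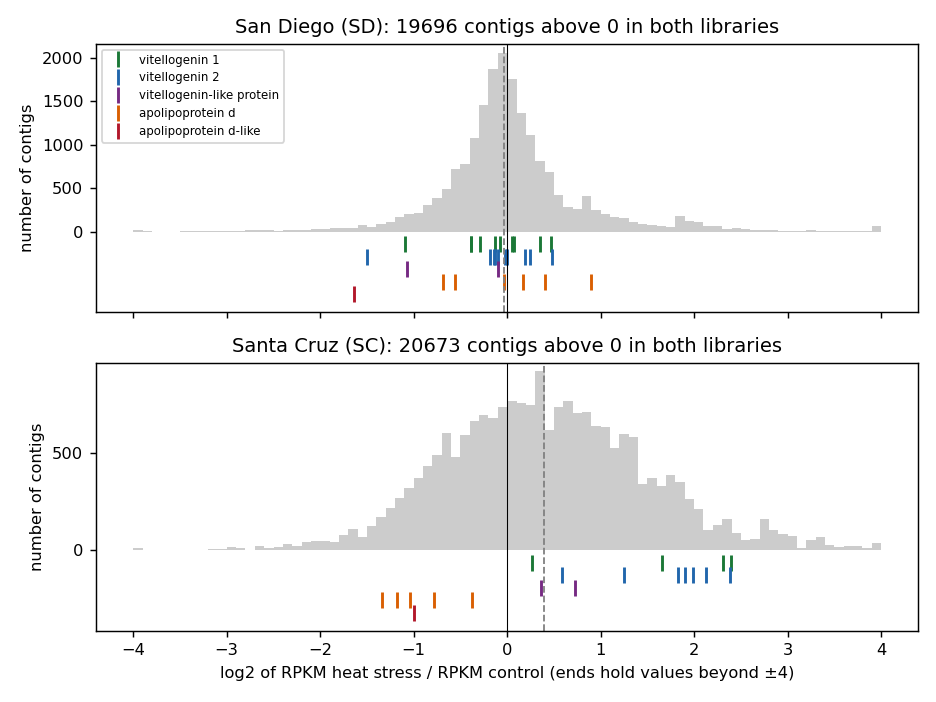
Number of contigs by log2 fold change in SD (top, 19696 contigs above 0 in both libraries) and SC (bottom, 20673 contigs), in bins of 0.1. Ticks under each histogram mark the members by product name, and the dashed line marks the median contig, at -0.03 in SD and 0.40 in SC. SC vitellogenin 1 and 2 ticks gather at the right of the distribution and apolipoprotein ticks at the left, while SD ticks gather near 0.

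The vitellogenin 1 contigs of SD spanned 99.9 to 1471 RPKM in the control and 57.1 to 1124 RPKM after heat stress. SD_Contig55352 fell from 1471 to 1124 RPKM on 1343 and 2944 reads, with a fold change of 0.765 (0.717 to 0.816). SD_Contig55479 fell from 728 to 556 RPKM, with a fold change of 0.764 (0.671 to 0.870). SD_Contig60379, of 160 bp, fell from 122 to 57.1 RPKM on 38 and 51 reads, with a fold change of 0.468 (0.302 to 0.732). Of these 3, SD_Contig55479 and SD_Contig60379 were not called on recovered reads. The other abundant contigs were not called on RPKM, though SD_Contig54113 and SD_Contig62673 were called down-regulated on recovered reads. SD_Contig54113 was at 1148 and 1049 RPKM, SD_Contig62673 at 1062 and 868 RPKM, SD_Contig62661 at 605 and 636 RPKM, and SD_Contig54114 at 540 and 560 RPKM. SD_Contig54748, SD_Contig54885 and SD_Contig68497 lay between 99.9 and 136 RPKM in the control, with fold changes of 1.39, 1.27 and 0.945.

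Vitellogenin 2 in SD included the most abundant of all members, SD_Contig70411, at 2057 RPKM in the control and 1885 RPKM after heat stress. Its fold change was 0.916 (0.888 to 0.946), and its rank among SD contigs was 23 and 28. SD_Contig54586 was at 970 and 955 RPKM, and SD_Contig47680, with 782 and 895 RPKM, was the abundant contig with the highest fold change, 1.14 (1.10 to 1.19). SD_Contig60403 was the 1 contig of the name that was called on RPKM, and fell from 111 to 39.5 RPKM on 57 and 58 reads, with a fold change of 0.355 (0.242 to 0.521). By the test on recovered reads SD_Contig60403 and SD_Contig70411 were called down-regulated and SD_Contig47680 up-regulated. The recovered reads of SD_Contig70411 and SD_Contig47680 are minima that the RPKM values did not settle. SD_Contig66075, SD_Contig67135, SD_Contig54921 and SD_Contig59883 lay between 106 and 636 RPKM in the control and had fold changes of 0.882, 0.933, 0.997 and 0.907. The remaining 3 were low. SD_Contig55552 was at 59.7 and 70.9 RPKM, SD_Contig62588 was at 4.40 and 6.13 RPKM, and SD_Contig68128 had 0 RPKM without heat stress and 13.2 RPKM with it. Set against a floor of 3 control reads, the ratio of SD_Contig68128 was 1.98. Its counting interval, on 0 and 17 reads, had a lower end of 1.44 and no upper end.

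The longer contig of vitellogenin-like protein in SD, SD_Contig69609, was at 850 RPKM in the control and 793 RPKM after heat stress, a fold change of 0.933 (0.902 to 0.966). The shorter, SD_Contig67770, was at 87.3 and 41.4 RPKM on 25 and 34 reads, a fold change of 0.474 (0.275 to 0.829). At least 2-fold lower RPKM was found for 3 of the 23 SD vitellogenin contigs, against 5.42% of all SD contigs, and at least 2-fold higher RPKM for 0, against 9.55% of all SD contigs and 4.04% of those with a mean RPKM of at least 50. The 3 were contigs of 147 to 263 bp with at most 57 control reads, and the SD contigs above 1000 RPKM in the control had fold changes between 0.765 and 0.916.

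The SD vitellogenin contigs left out for a species in brackets had values in the range of the members. Of the 4 SD contigs named for the vitellogenin of *Tigriopus japonicus*, SD_Contig59188 fell from 1301 to 953 RPKM, with a fold change of 0.732 (0.673 to 0.797). Fold changes of 0.865 and 0.875 were found for SD_Contig58763 and SD_Contig71393. SD_Contig54992 had 0 RPKM without heat stress and 12 RPKM with it.

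Apolipoprotein d in SD did not have a common direction. Of 6 contigs 3 were higher and 3 lower after heat stress, and 0 were called on RPKM. The most abundant, SD_Contig68658, was at 180 and 122 RPKM on 345 and 672 reads, a fold change of 0.679 (0.596 to 0.776), and was called down-regulated on recovered reads. SD_Contig54245 was at 91.8 and 89.4 RPKM. The other 4 lay between 12.2 and 38.9 RPKM in the control, with fold changes from 0.622 to 1.86 whose intervals all included 1. Summed over the 7 apolipoprotein contigs, the SD fold change was 0.805 (0.729 to 0.889), against 0.521 (0.476 to 0.570) over the 6 of SC.

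Apolipoprotein d-like was the only product name of the group on exactly 1 contig in each population. SD_Contig70865 was at 48.4 RPKM in the control and 15.6 RPKM after heat stress on 13 and 12 reads, a fold change of 0.322 (0.134 to 0.765). SCN_Contig54457 was at 47.4 and 23.7 RPKM on 108 and 82 reads, a fold change of 0.50 (0.370 to 0.672). The control levels were close, the fold changes had overlapping intervals, and neither contig was called on RPKM. On recovered reads the SC contig was called down-regulated. Sequence was not compared, so that the contigs are paired by name alone.

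The populations were mapped to separate assemblies and normalised separately, so levels are set side by side across them without a test. In the control, vitellogenin 1 contigs had a median of 572 RPKM in SD and 130 RPKM in SC, and vitellogenin 2 contigs 166 and 81.1 RPKM. The highest vitellogenin contig was at 2057 RPKM in the SD control and 873 RPKM in the SC control, and at 1885 and 1849 RPKM after heat stress. As shares of recovered reads, vitellogenins took 1.64% of the SD control and 1.07% of the SC control library, and 1.51% and 2.62% of the heat stress libraries. The SC control library was thus the low one of the 4 for vitellogenin 1 and 2. For vitellogenin-like protein the SC control share of 0.526% was above both SD shares as recovered, 0.282% in the control and 0.260% after heat stress. SD_Contig69609 held 4446 of the 4471 SD control reads of this name, and its reads are minima, so the order is not settled. Its control level of 850 RPKM was close to the 873 RPKM of SCN_Contig54343. The recovered reads of 6 SD contigs were not settled by the RPKM values and are minima, so the SD shares may be too low. They include the SD contigs with most reads, SD_Contig70411, SD_Contig54113, SD_Contig69609, SD_Contig47680 and SD_Contig62673. Where an SC vitellogenin share is above an SD share, the order is therefore not settled. The counting intervals of the 6 contigs and the ratio of SD_Contig68128 against the floor rest on the same reads.

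**Figure D4:**
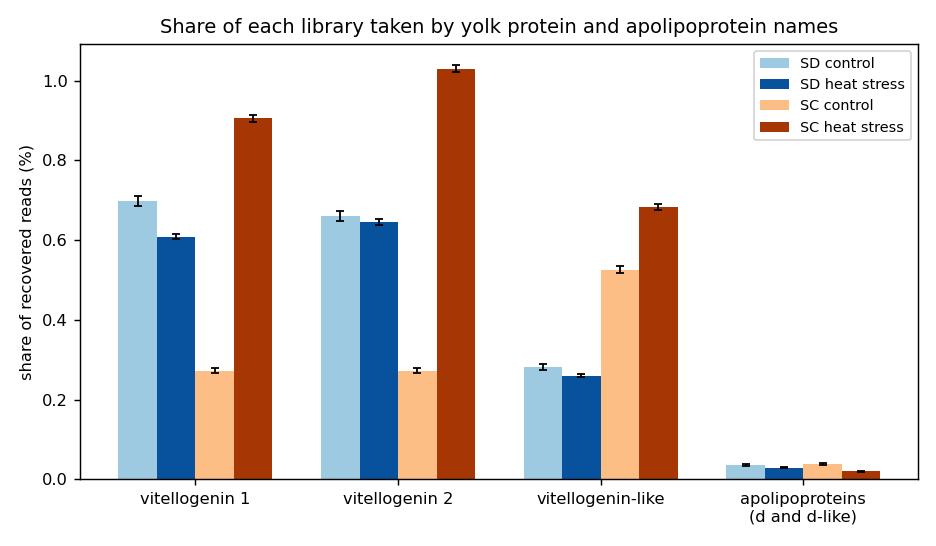
Share of recovered reads (%, axis from 0) on vitellogenin 1, vitellogenin 2, vitellogenin-like protein and apolipoprotein contigs in the 4 libraries, with 95% exact binomial intervals as error bars that cover counting error only. The SC control bars of vitellogenin 1 and 2, at 0.272% and 0.273%, are the lowest of their groups. The SC heat stress bars, at 0.906% and 1.03%, are the highest as recovered. The SD vitellogenin bars rest partly on minimum reads and may be too low, so that this order is not settled.

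Other genes of yolk and lipid handling were taken by product name. Microsomal triglyceride transfer protein, which loads the carriers, was on 2 SC contigs, SCN_Contig31536 at 7.89 and 22.1 RPKM and SCN_Contig61950 at 10.9 and 32.6 RPKM. Their fold changes were 2.81 (1.96 to 4.11) and 2.98 (2.18 to 4.15). Neither was called on RPKM, while Kal's test on recovered reads, which called 10.9% of all SC contigs up-regulated, called both. The SD contig of this name, SD_Contig37122, was at 34.9 and 30.2 RPKM, a fold change of 0.866 (0.734 to 1.03).

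Counts in these lists are read against the 64.4% of all SC contigs and 48.2% of all SD contigs that were higher after heat stress. For calls on RPKM the shares of all contigs were 3.05% up and 2.49% down in SC, and 1.35% and 1.24% in SD. For calls on recovered reads the shares were larger in SC, 10.9% up and 7.03% down, and in SD they were 1.39% and 1.77%. Names of lipoprotein receptors, some of which take carriers into cells, were higher in 15 of 16 SC contigs and 8 of 12 SD contigs. The words also took in low-density lipoprotein receptor-related proteins 5 and 6 and, in SD, a receptor adaptor protein. On RPKM 0 contigs of the list were called in either population. On recovered reads 5 SC contigs, among them SCN_Contig30184 of related protein 5, were called up-regulated and 0 SD contigs. The most abundant, named low-density lipoprotein receptor, was at 198 and 270 RPKM in SC (SCN_Contig28942) and at 197 and 202 RPKM in SD (SD_Contig36099). Names holding furin, proprotein convertase or subtilisin were higher in 15 of 16 SC contigs and 5 of 11 SD contigs, with 0 called on RPKM and 3 SC contigs called up-regulated on recovered reads. Furin-type convertases cleave vitellogenin in insects, but the words also took in phosphofurin acidic cluster sorting protein 2, a sorting adaptor. Niemann-Pick and sterol carrier names, which move sterols, were higher in 9 of 11 SC and 4 of 6 SD contigs with 0 called. For names holding lipase the numbers were 36 of 55 and 29 of 54, with 0 called on RPKM, and the SC share was close to that of all contigs. On recovered reads calls of higher levels fell on 3 SC lipase contigs and calls of lower levels on 2, both below the shares of all SC contigs. In the sterol list 1 of 11 SC contigs was called up-regulated, near the share of all SC contigs. Clathrin, which coats the pits where yolk is taken up, was higher in 4 of 9 SC contigs with 1 called, and in 1 of 8 SD contigs with 0 called. The 1 SC contig called on RPKM, clathrin light chain SCN_Contig54379, fell from 205 to 97.8 RPKM. On recovered reads 1 SC clathrin contig was called up-regulated and 2 down-regulated. The former, clathrin heavy chain SCN_Contig28707, was at 31.8 and 66.6 RPKM, a fold change of 2.10 (1.91 to 2.30). Names holding vitelline, vitellogenic or yolk were on 3 SC contigs of at most 12.5 RPKM and 0 SD contigs, and perilipin names were on 0 contigs in both.

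Intracellular fatty acid and retinoid binding proteins, barrel-shaped carriers like the lipocalins, were lower in 6 of 8 SC contigs and 4 of 6 SD contigs, against 35.6% and 51.8% of all contigs. Called down-regulated were 2 in SC, against 2.49% of all contigs and 15.4% of those with a mean RPKM of at least 50, and 1 in SD, against 1.24% and 5.77%. All 3 called contigs were named cellular retinoic acid-binding protein 2. SCN_Contig55811 fell from 2093 to 1285 RPKM, with a fold change of 0.614 (0.587 to 0.642). SCN_Contig63642 fell from 1080 to 485 RPKM, with a fold change of 0.449 (0.418 to 0.482). SD_Contig43028 fell from 259 to 153 RPKM, with a fold change of 0.590 (0.430 to 0.815), and was not called on recovered reads. A more abundant SD contig of this name, SD_Contig70447, was at 855 RPKM in the control and was closer to level. Its fold change was 0.891 (0.808 to 0.984), and it was called neither on RPKM nor on recovered reads.

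Since yolk proteins are made by females and the pools held both sexes and all stages, names of germ-line genes were read in the same libraries. The first list held the words vasa, nanos, piwi, oocyte, maternal, ovary, ovarian and zona pellucida. Vasa, nanos and piwi mark germ cells of both sexes, and the words also took in ferritin light oocyte isoform and ovarian cancer-associated gene 2. Of its SC contigs 13 of 21 were higher after heat stress, close to the 64.4% of all SC contigs, and 1 was called up-regulated on RPKM. Its median log2 fold change relative to the median contig was -0.34, and its summed level was 1382 RPKM in the control and 1514 RPKM after heat stress. The vasa contig SCN_Contig62585, an RNA helicase of germ cells, was at 405 and 403 RPKM, and the other, SCN_Contig46563, at 230 and 250 RPKM. The contig called on RPKM was SCN_Contig54472, protein nanos, which rose from 203 to 291 RPKM, and 1 contig of the list, a piwi, was at 0 in the control. By the test on recovered reads 4 SC contigs of the list were called up-regulated and 0 down-regulated, against 10.9% and 7.03% of all SC contigs. In SD 11 of 22 contigs were higher, 0 were called on RPKM or on recovered reads, and the summed level was 1572 and 1581 RPKM. The second list, which holds the words testis, sperm and tektin and so also takes in enzymes of spermine metabolism, was higher in 19 of 26 SC contigs with 3 called up-regulated, against 64.4% and 3.05% of all SC contigs, and its sum was 513 and 838 RPKM. All 3 SC contigs called on RPKM (SCN_Contig35913, SCN_Contig54792 and SCN_Contig52962) were named nuclear autoantigenic sperm protein, a histone chaperone. By the test on recovered reads 8 SC contigs of the second list were called up-regulated and 2 down-regulated, against 10.9% and 7.03% of all SC contigs. In SD 21 of 34 contigs of the second list were higher with 3 called up-regulated, against 48.2% and 1.35% of all SD contigs, and its sum was 1412 and 1887 RPKM. The called SD contigs were SD_Contig37046, named bromodomain testis-specific, and SD_Contig54581 and SD_Contig58719, both named sperm mitochondrial-associated cysteine-rich protein. The same 3 were called up-regulated on recovered reads, against 1.39% of all SD contigs, and 0 were called down-regulated. The sex and stage makeup of the pools was not measured, and its part in the vitellogenin levels was not tested.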

How the data were processed

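Per the methods of the study, reads were trimmed and assembled, with earlier reads, into contigs for each population with CLC Genomics Workbench; each library was mapped to its own assembly and contigs were named by BLASTX. The authors deposited 1 RPKM value per contig and library, for 20278 SD and 20931 SC contigs. The study assembled more contigs than these in each population, so all contigs here means the deposited ones.

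Library totals were found as the values under which RPKM implies whole reads, and the smallest length of 30 to 12000 bp giving whole reads in both libraries was taken for each contig. Recovered reads are therefore minima. For 86.2% of SD and 99.995% of SC contigs chance would give such a fit in fewer than 0.05 of cases; 6 SD members did not reach this. Recovery and tests were tested on simulated data, where Kal's test on recovered reads found more of the changed contigs, with fewer false calls, than the same test on RPKM. The simulated libraries differed only by counting error and set changes in both directions, with no shift of the median contig. They therefore give no measure of false calls in these libraries.

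Kal's *Z*-test compared RPKM as shares of their sum, with Bonferroni adjustment over all deposited contigs of the population. With 1 library per condition it compares libraries, not conditions. A second rule was a fold change of at least 2 or at most 0.5, with contigs at 0 taken against 3 reads. The contigs named were those called, those at 100 RPKM or more in a library (at most 20 per population, by mean RPKM) and those whose name is on 1 contig in each population; others named were chosen after their values were seen. The members and lists were chosen with earlier results of these data known. Alternatives were the test on recovered reads, other thresholds, median-ratio scaling, added values, a read minimum and the member rule; brackets included, apolipoprotein names alone, the largest contigs left out and the background at a mean RPKM of at least 50 were chosen after seeing the data. No sequences were used here. Python 3.11.15, numpy 2.4.6, scipy 1.17.1, pandas 2.3.3 and matplotlib 3.10.9 were used.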

Additional observations from a re-analysis of the deposited data

Results flagged for a closer look

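The summed reads of the 3 vitellogenin names gave fold changes below 1 in SD and above 1 in SC, a difference that was not tested, with 1 library per condition. For vitellogenin 1 the fold change was 0.879 in SD and 3.32 in SC, for vitellogenin 2 it was 0.984 (0.963 to 1.01, which includes 1) and 3.77, and for vitellogenin-like protein it was 0.931 and 1.30. The SC value for vitellogenin-like protein is close to the fold change of the median SC contig, 1.32. The SD sums rest partly on minimum reads, so the weight of each contig in them is not settled.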

How the results depend on the processing

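No paired analysis was possible because each condition holds 1 library per population, and for the same reason no library could be left out. The 4 SD calls became 7 with Kal's test on recovered reads and 9 with a Benjamini-Hochberg threshold of 0.05. The 12 SC calls became 16 and 15, and 9 with scaling by the median ratio. A Bonferroni threshold of 0.05 and a filter on more than 10 recovered reads in at least 1 library left both counts as they were. Under that scaling the fold changes of 10 SC contigs moved beyond their counting intervals, 4 stayed within them, and that of SCN_Contig54343 turned from 1.29 to 0.976. Those of 20 SD contigs stayed within them.

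The shares of recovered reads on all members were 1.68% and 1.54% in the SD control and heat stress libraries and 1.11% and 2.64% in SC. Against all mapped reads they were 1.37%, 1.27%, 0.972% and 2.31%, with vitellogenin names alone 1.64%, 1.51%, 1.07% and 2.62%, and without the 3 vitellogenin contigs with most reads, an alternative chosen after seeing the data, 0.744%, 0.691%, 0.125% and 0.350%. The SC median log2 fold change was -1.02 over apolipoprotein names alone. Depth limits the SD contigs with few reads, and at most 57 control reads lie behind each SD fold change under 0.5.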
